A study of Homo sapiens with 12 samples.

Results

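Clone E2 is 1 of 5 clones of the PC9 line that were labelled tolerant of gefitinib, and its 2 arrays were set against the 8 arrays of the other tolerant clones, D6, E1, E3 and E6. PC9 is a human lung adenocarcinoma line that carries an activating EGFR mutation, and gefitinib inhibits the EGFR kinase. Each clone grew from 1 sorted cell, so each stands for a single cell of the parent line, and the clones were taken at random from those that grew. The 2 E2 arrays, 8 arrays of the other tolerant clones and 2 arrays of the sensitive clone B7 make up all 12 arrays, and B7 serves here only as a level for orientation. All groups share the line and the stated treatment of 0.4 to 2 µM gefitinib for 14 days. Whether a clone was in drug when its RNA was taken, and whether B7 was exposed at all, cannot be told from the labels.

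Cells that leave the cell cycle lower the genes that copy DNA in S phase and the genes that build the mitotic spindle, and cells that survive an EGFR inhibitor are known for cycling slowly. The ERK pathway lies downstream of EGFR and switches on its own inhibitors, so their transcripts report its output. In airway epithelium, mucins, CEACAM proteins and cornified envelope proteins mark secretory or squamous differentiation. All 8 epithelial markers were detected in E2, with a summed intensity of 41848 to 43837 on its arrays, against 51453 to 64181 in the other 4 clones. Fibroblast markers were detected for 2 of 8 genes, endothelial for 2 of 8 and leukocyte for 6 of 10, and the leukocyte sum was 1437 to 1441 in E2, against 2076 to 4245 in the others. Of the leukocyte markers, CD68, CSF1R, CD14 and CD79A were detected on every array, with CD68 at 9.55 in E2 and 11.1 in the others. The T cell marker CD3E and the pan-leukocyte marker PTPRC were detected on no array.

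Signal was brighter in E2 than in its comparators, and 19302 to 20290 of 47229 probes were detected per array. The 75th percentile of the scanner signal averaged 118 intensity units in E2, against 80.2 for D6, 94.5 for E1, 104 for E3 and 97.9 for E6, and was 131 for B7. Every difference below is on the log2 scale after quantile normalization, which gives all arrays the same distribution, and the part of the brightness in the results was not tested.

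E2 stood further from the other tolerant clones than any of them did. Over 12250 detected genes, E2 differed from the mean of D6, E1, E3 and E6 with a root mean square difference of 0.53 on the log2 scale, while each of the other 4 differed from its own comparators by 0.32 to 0.41. The 2 arrays of a clone had a root mean square SD of 0.14. By limma over all 12 arrays, 3238 genes (26.4%) were higher in E2 and 3277 (26.8%) lower at an adjusted p under 0.05, 53.2% in all. With median scaling in place of quantile normalization 70.5% of the calls were higher in E2, against 49.7% here, and the median of all genes moved to 0.14. Those p-values measure the spread between the 2 arrays of a clone, which may be technical, because nothing says that they came from separate cultures. A call at this level says that the E2 arrays differed from those of these 4 clones, not that E2 differed by more than clones differ among themselves. A stricter count therefore took the genes that also differed by at least 1 log2 unit, or 2-fold, with both E2 arrays outside all 8 others. Such genes, called set apart from here on, numbered 379 higher (3.09%) and 395 lower (3.22%), 774 in all (6.32%). The same rule gave 268 genes (D6), 296 (E1), 114 (E3) and 153 (E6), each against the remaining 4 tolerant clones, and these counts share their arrays. Both E2 arrays lay above all 8 others for 18.6% of genes and below them for 16.2%, whatever the size. For any gene 1 of the 5 tolerant clones must be highest and 1 lowest, so these shares alone do not mark E2 out. Against single clones, E2 was higher for 25.8% and lower for 25.8% of genes with D6, 26.8% and 27.8% with E1, 19.9% and 20.3% with E3, and 23% and 22.8% with E6. It was higher than each of the 4 for 10.3% of genes and lower for 10.1%. Of the 12250 genes, 120 passed the detection filter through E2 alone, and 2 of these were set apart. The genes nearest the 2-fold limit were HELLS (1.0005) and DMBT1 (-1.002) inside it, and CPAP (0.9996) and PCMTD1 (-0.9996) outside it.

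With 1 mean per clone, so that the spread between clones was the error, 0 genes passed by limma after adjustment. At an unadjusted p under 0.05 there were 1950 (15.9%), and the smallest adjusted p was 0.0861 for CLIC3 and for BNIPL, which was named after its value was seen. An array-level fit with the clone as a random block called 358 of 12250 genes higher and 377 lower. This fit shared 1 within-clone correlation, 0.746, across all genes, and E2 is a single clone in it. It is too lenient for genes whose arrays are more alike within a clone than that. Its counts stand beside each list below, and its adjusted p beside each gene whose difference is given and whose call it ended. Main-fit counts of a list are to be read against 26.4% higher and 26.8% lower over all genes.

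**Figure D1:**
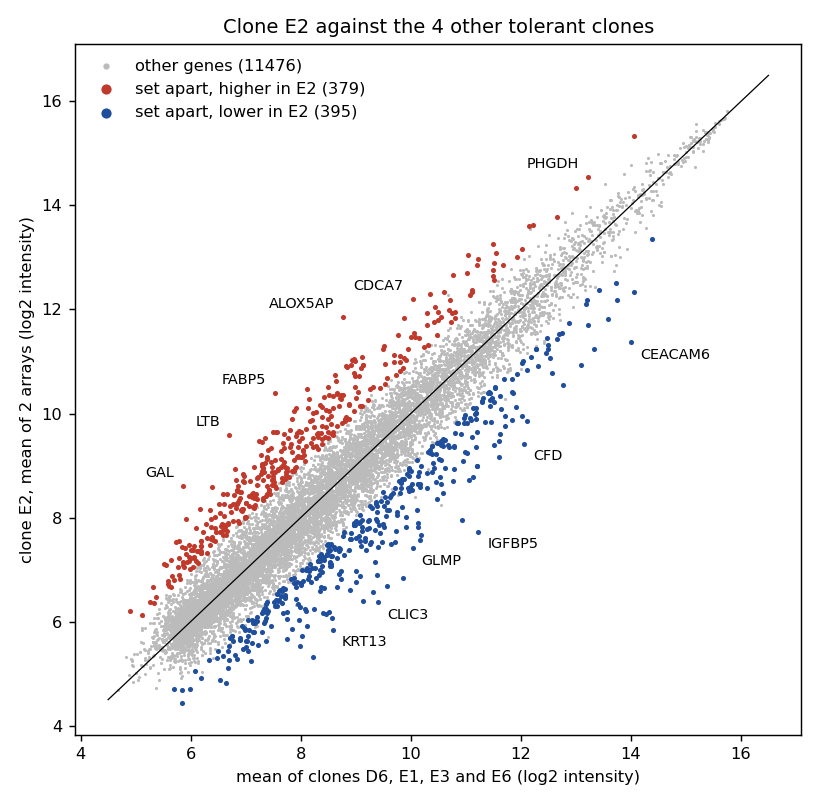
Level of each of 12250 genes in clone E2 (mean of 2 arrays, log2 intensity, vertical axis) against the mean of clones D6, E1, E3 and E6 (horizontal axis), with the line of equal levels. The 379 genes set apart and higher in E2 lie above the line, with ALOX5AP and LTB far from it, and the 395 set apart and lower lie below it, IGFBP5 furthest.

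Every mitosis gene measured was higher in E2. All 42 genes of the list were called and set apart, with differences of 1.12 to 2.36 and a median of 1.76 log2 units, beside a median of -0.01 over all genes. The median level of the list was 9.45 and 9.51 on the E2 arrays, against 6.76, 7.70 and 8.13 as the lowest, median and highest of the other 8, and 9.46 and 9.57 in B7. E2 thus stood clear of all 8 arrays and overlapped B7. Against single clones the median difference was 2.56 for D6, 1.68 for E1, 1.69 for E3 and 1.36 for E6, so the other clones differed among themselves as well. In these bulk samples, fewer dividing cells and less RNA in each dividing cell cannot be told apart. Array brightness, like the list, was lowest in D6 (80.2 intensity units) and highest in B7 (131), with 118 in E2, and its part in the result was not tested. At the clone level all 42 had an unadjusted p under 0.05 and 0 passed after adjustment, and with the clone as a random block 37 were called.

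CENPA, the histone H3 variant that marks centromeres, had 10.50 and 10.44 in E2, against 7.37, 8.25 and 8.62 as the lowest, median and highest of the other tolerant arrays, and 10.23 and 10.18 in B7. It was higher by 2.36 ± 0.091 log2 units (SE of the array-level fit, adjusted p = 1.6e-08), or 5.14-fold, and lay just above B7 as well. KIF4A, a chromosome-bound kinesin, had 8.53 and 8.66 in E2, against 5.49, 6.42 and 7.29, a difference of 2.21 ± 0.18 (adjusted p = 3.49e-06). BIRC5, or survivin, a subunit of the chromosomal passenger complex, had 10.13 and 10.10 in E2, against 7.03, 8.07 and 8.47, and was 4.59-fold higher (adjusted p = 7.9e-09). A second BIRC5 probe differed by 0.92, so the size of this fold depends on the probe. The condensin subunit NCAPG had 9.55 and 9.53 in E2, against 6.50, 7.42 and 8.13, and the hyaluronan receptor and spindle protein HMMR had 10.33 and 10.25, against 7.54, 8.24 and 8.69. Both were set apart, by 2.19 ± 0.062 and 2.14 ± 0.072. In each of these 5 genes the highest of the 8 other arrays stayed more than 1 log2 unit under the lower E2 array. Of the 42 genes, all set apart, 19 were above both B7 arrays too, CENPA, CDCA3 and HMMR among them. Of the 379 genes set apart and higher in E2, 117 were above both B7 arrays, or 0.955% of all genes tested. The proliferation antigen MKI67 had 7.31 and 7.13 in E2, against 5.28, 5.98 and 6.51, and 7.73 and 7.66 in B7, a difference of 1.21 ± 0.13 (adjusted p = 2.01e-05). Only 4 of the 8 other arrays detected it, and with the clone as a random block its adjusted p was 0.0795.

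Many mitosis promoters hold the cell cycle genes homology region, TTTGAA, through which the MuvB complexes act in cycling and resting cells. The 100 bases before the RefSeq start (GRCh38.p14) of the 4 mitosis genes with the largest differences whose stretch holds it are shown because the genes moved together. Capitals mark the motif, each stretch reads 5′ to 3′ in the direction of its gene, and HMMR holds 2 copies side by side. CENPA is at chr2:26785956-26786055 (+), KIF4A at chrX:70290004-70290103 (+), NCAPG at chr4:17810879-17810978 (+) and HMMR at chr5:163460532-163460631 (+).
CENPA: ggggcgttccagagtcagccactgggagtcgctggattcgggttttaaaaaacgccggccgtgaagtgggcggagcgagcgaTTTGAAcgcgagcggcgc
KIF4A: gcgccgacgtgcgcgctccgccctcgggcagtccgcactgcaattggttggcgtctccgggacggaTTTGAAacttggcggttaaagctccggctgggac
NCAPG: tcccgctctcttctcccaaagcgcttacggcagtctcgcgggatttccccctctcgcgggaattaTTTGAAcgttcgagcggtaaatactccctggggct
HMMR: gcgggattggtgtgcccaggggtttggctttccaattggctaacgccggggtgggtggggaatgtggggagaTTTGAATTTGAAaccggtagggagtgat
Searched on both strands, the motif was in 13 of the 35 mitosis promoters given (37.1%) and in 258 of 9757 promoters of genes tested (2.64%). It was in 44 of the 303 promoters of genes set apart and higher in E2 (14.5%) and in 14 of 299 of those lower (4.68%). A match describes the letters and says nothing of binding by a factor.

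DNA replication genes were higher as well, with more room between E2 and B7. Of 35 measured S phase genes, 33 were called higher, 0 lower and 27 set apart, with a median of 1.29 log2 units. The list stood at 9.64 and 9.72 on the E2 arrays, against 7.91, 8.39 and 8.997 as the lowest, median and highest of the other tolerant arrays, and 10.13 and 10.16 in B7. E2 therefore lay above the other 4 clones and below B7, and the median difference was smallest against E6 (0.66) and largest against D6 (1.92). CDC45, a subunit of the replicative helicase, had 10.74 and 10.72 in E2, against 7.26, 8.69 and 9.67, and 10.70 and 10.73 in B7. It was higher by 2.10 ± 0.08 (adjusted p = 1.55e-08). Its partner GINS2 had 11.03 and 11.002 in E2, against 7.92, 9.04 and 9.96, the loading factor MCM10 had 9.33 and 9.36, against 6.40, 7.57 and 8.31, and the helicase subunit MCM4 had 10.69 and 10.74, against 8.24, 8.91 and 9.98. These 3 differed by 2.03, 1.89 and 1.74, with standard errors of at most 0.094. With the clone as a random block 19 of the 35 were called.

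E2F factors, which drive S phase genes, bind sites such as TTTGGCGC and TTTCGCGC. Either word stood within 100 bases before the start in 5 of 33 S phase promoters (15.2%) and in 68 of 9757 in all (0.697%). The promoter shown is MCM6, another helicase subunit, at chr2:135876444-135876543 (-), and its 2 matches overlap in the capitals. It had the largest difference among the S phase genes considered for display whose stretch holds a match. The genes considered did not cover the whole list, so a gene with a larger difference may hold a match too.
MCM6: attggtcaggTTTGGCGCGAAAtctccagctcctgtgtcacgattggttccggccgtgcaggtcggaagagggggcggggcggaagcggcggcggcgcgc

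The G1 genes upstream of that step were mixed. Of 15 measured, 6 were higher and 5 lower, and 2 and 1 with the clone as a random block. Set apart was 1, the inhibitor of CDK4 and CDK6 CDKN2B. It had 7.18 and 7.11 in E2, against 8.89, 9.44 and 9.60 in the other tolerant clones, and 6.48 and 6.26 in B7. The fall was 2.20 log2 units (-2.20 ± 0.078, adjusted p = 9.45e-09), and a second probe differed by -1.64. Cyclin D1, CCND1, had 11.10 and 10.99 in E2, against 9.74, 10.01 and 10.61, and the kinase CDK4 had 11.51 and 11.37, against 10.51, 10.61 and 10.90. Their differences were 0.97 ± 0.067 and 0.79 ± 0.073, short of 2-fold but with no overlap between the groups. CDKN1A, the p21 inhibitor, differed by -0.65 ± 0.057 (adjusted p = 4.59e-06), with E2 (8.86 and 8.93) inside the range of the other clones (8.61 to 10.28), and was not called with the clone as a random block (adjusted p = 0.453). Of 19 p53 targets 4 were higher and 4 lower, beside 26.4% and 26.8% of all genes. Set apart were 2, both lower, and 2 were called, lower, with the clone as a random block. These were TP53INP1, which promotes autophagy and cell death, at 6.58 and 6.70 in E2 against 7.59 to 7.83, and the oxidoreductase TP53I3 at 8.26 and 8.13 against 8.87 to 10.67. Its other probe differed by -0.02, so TP53I3 rests on 1 probe.

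Histone genes went both ways. Of 13 measured, 3 were higher and 7 lower, and 2 and 4 with the clone as a random block. H4C3 was set apart higher, at 15.37 and 15.31 in E2 against 13.73, 14.11 and 14.33, a difference of 1.28 ± 0.061. Set apart lower were 4 of the 13. The H2B gene H2BC5 had 9.40 and 9.39 in E2, against 10.88, 11.37 and 12.44, and 8.15 on both B7 arrays, and differed by -2.13 ± 0.059 (adjusted p = 4.1e-09). H2AC6 differed by -1.59 and H4C8 by -1.13, the second not called with the clone as a random block (adjusted p = 0.146). The probes of replication-dependent histones can share sequence, so the split between copies is uncertain.

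**Figure D2:**
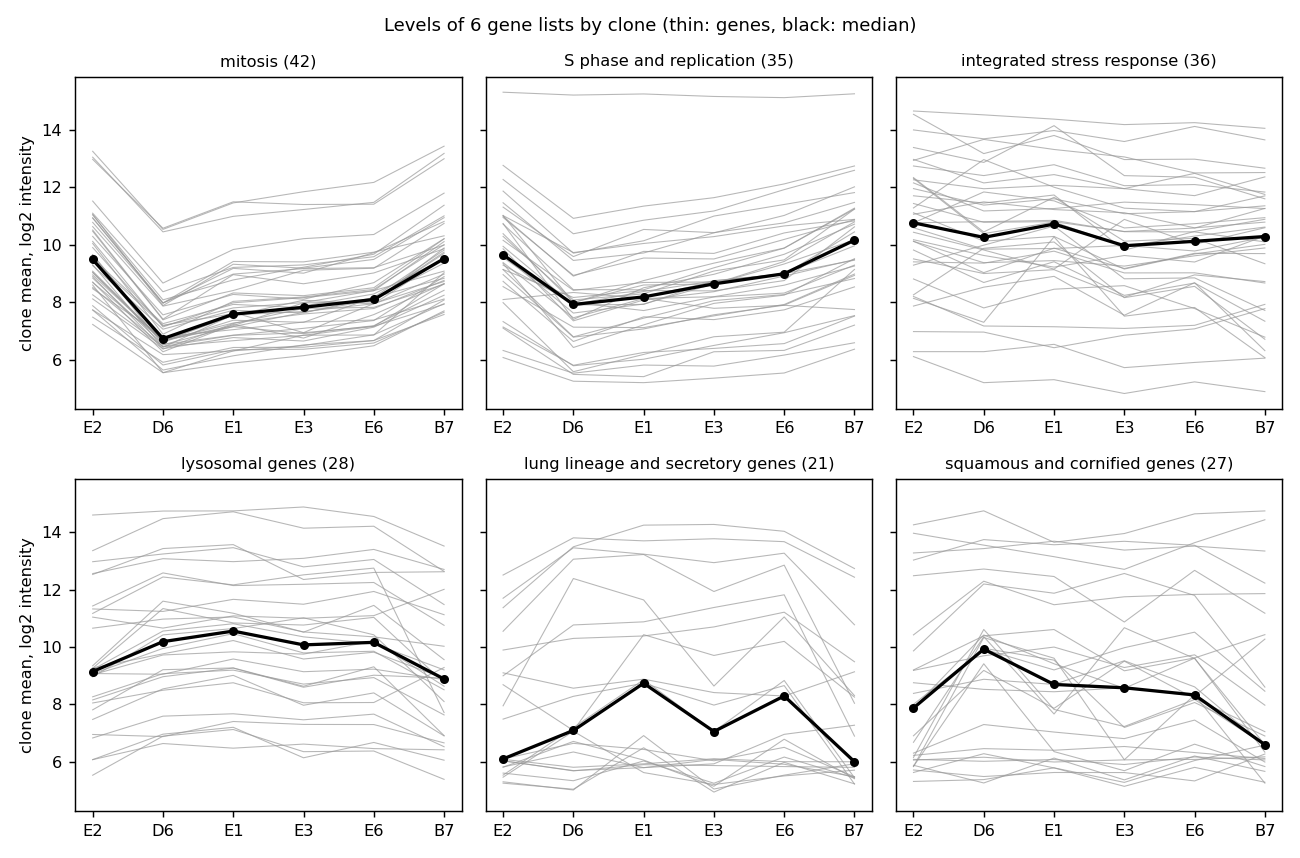
Levels (clone means, log2 intensity) of the measured genes of 6 lists in E2, D6, E1, E3, E6 and B7. Thin lines join the values of 1 gene and the black line is the median of the list. The median of the 42 mitosis genes is 9.48 in E2 and 9.51 in B7 and lies between 6.73 and 8.09 in the other 4 clones, while the lysosomal median is 9.15 in E2 and 10.07 to 10.55 in those 4.

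Outside the cell cycle, the 4 genes furthest above the other tolerant clones were an eicosanoid cofactor, a cytokine, a lipid carrier and a neuropeptide. ALOX5AP, which presents arachidonic acid to 5-lipoxygenase, had 11.79 and 11.91 in E2, against 7.04, 9.25 and 9.52, and 12.56 and 12.64 in B7. It was 8.45-fold higher (3.08 ± 0.074, adjusted p = 2.94e-09), and E6 alone was near 7.08 while D6, E1 and E3 were at 9.25 to 9.49. LTB, lymphotoxin beta of the tumour necrosis factor family, had 9.55 and 9.62 in E2, against 5.95, 6.67 and 7.60, and 6.01 and 5.94 in B7. It was 7.37-fold higher (adjusted p = 7.06e-09), so E2 was above B7 too, and its second probe differed by 1.92. FABP5, a fatty acid binding protein, had 10.24 and 10.55 in E2, against 5.94, 7.66 and 8.64, and 11.85 and 11.86 in B7 (2.87 ± 0.14), with 2.16 at its other probe. Galanin, GAL, had 8.62 and 8.61 in E2, against 5.46, 5.83 and 6.44, and 10.12 and 10.32 in B7 (2.75 ± 0.16). Only 3 of the 8 other arrays detected GAL, so its fold is uncertain. LTB thus parts from the other 3, which were highest in B7.

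TEX19, a gene known from germ cells and placenta, had 9.69 and 9.62 in E2, against 6.53, 7.35 and 8.76, and 7.07 and 6.98 in B7, a difference of 2.16 ± 0.071 (adjusted p = 7.9e-09). CDCA7, a MYC and E2F target, had 12.26 and 12.14 in E2, against 8.86, 10.16 and 10.94, and 11.71 and 11.72 in B7 (2.16 ± 0.063). Both were above every other array of the series. FAM83D, CKAP2L and DEPDC1, which act at or near the spindle, completed the 15 highest with differences of 2.14 to 2.23. Further genes above B7 came from other lists: CCL20, a chemokine for CCR6-bearing lymphocytes, had 7.51 and 7.60 in E2 and was detected on 0 of the 8 other tolerant arrays, at least 2.96-fold higher (adjusted p = 5.29e-08), with 6.69 and 6.75 in B7. TGFBR3, the betaglycan coreceptor of TGF-beta, had 8.92 and 8.77 in E2, against 7.09, 7.27 and 7.48, and 8.33 and 8.35 in B7 (1.58 ± 0.096).

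**Figure D3:**
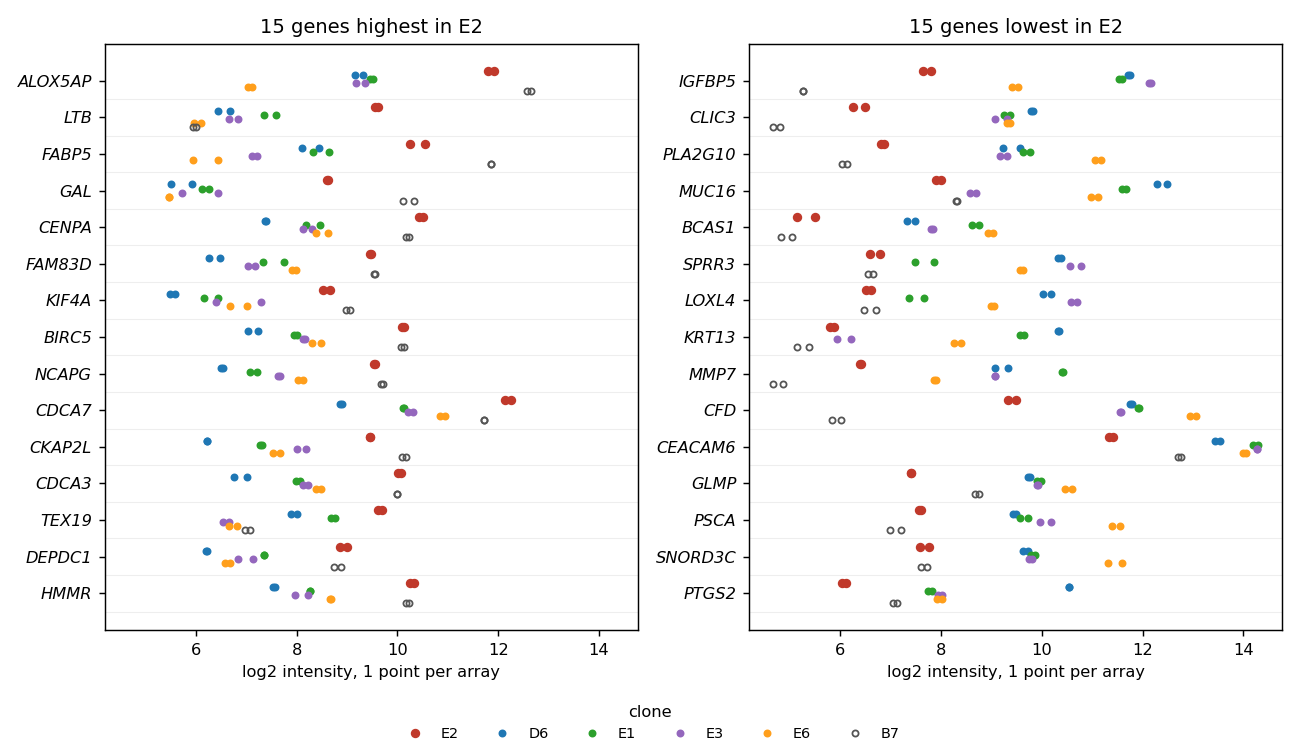
Log2 intensity on each array (1 point per array, coloured by clone) of the 15 genes highest and the 15 lowest in E2 among those set apart. In each row both E2 points lie outside the 8 points of D6, E1, E3 and E6, and for LTB, CDCA7 and TEX19 they also lie above both open B7 points.

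PSAT1, ASNS, PHGDH and MTHFD2, enzymes of serine, asparagine and one-carbon metabolism, were higher in E2 than in the other tolerant clones and in B7. They were listed with the integrated stress response, in which ATF4 raises amino acid synthesis and transfer RNA charging. Of 36 measured genes of this list 23 were higher, 6 lower and 6 set apart, all 6 higher, with a median of 0.56 log2 units. Under the random block 8 were called, all higher. The list stood at 10.74 and 10.78 on the E2 arrays, against 9.93, 10.19 and 10.68 as the lowest, median and highest of the other tolerant arrays, and 10.27 and 10.30 in B7. All 6 set apart were above both B7 arrays. PSAT1, of serine synthesis, had 12.31 on both E2 arrays, against 9.90, 10.34 and 10.86, and 10.56 and 10.67 in B7 (1.95 ± 0.065, adjusted p = 7.94e-09). The asparagine synthetase ASNS had 12.37 and 12.30 in E2, against 10.12, 10.33 and 11.67, and 9.39 and 9.28 in B7 (1.73 ± 0.06). PHGDH, the first enzyme of serine synthesis, had 14.54 on both E2 arrays, against 12.96, 13.08 and 13.90, and 12.70 and 12.62 in B7 (1.31 ± 0.066). MTHFD2, a mitochondrial folate enzyme, had 11.09 and 11.13 in E2, against 9.10, 9.95 and 10.30, and 10.01 on both B7 arrays (1.30 ± 0.073). E1 was nearest to E2 in all 4. The list did not move as one: the stress factor ATF3 was lower in E2 by -0.91 ± 0.08, with 8.23 and 8.28 in E2 inside the range of 8.07 to 10.12, and was not called with the clone as a random block (adjusted p = 0.412).

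Part of the ERK output was higher in E2 than in the other tolerant clones but far under B7. Of 25 measured genes 14 were higher, 7 lower and 5 set apart, all 5 higher, with a median of 0.44. The median difference was 0.01 against D6, 0.16 against E1, 0.72 against E3 and 0.48 against E6. By this median E2 was level with D6. In the random-block fit 7 were called, all higher. The list median was 7.41 and 7.42 on the E2 arrays, inside the range of 6.68 to 7.45 of the other 8, and 9.31 and 9.37 in B7. DUSP6, the phosphatase that inactivates ERK, had 8.60 and 8.45 in E2, against 6.59, 6.87 and 7.17, and 11.21 and 11.20 in B7. It was 3.22-fold higher (1.69 ± 0.077, adjusted p = 4.6e-08), with 1.09 at its other probe. ETV5, an ETS factor induced by ERK, had 8.13 and 8.19 in E2, against 5.49, 6.03 and 7.02, and 9.67 and 9.72 in B7 (1.99 ± 0.099), with 0.48 at its other probe. The AP-1 factor FOSL1 had 7.42 and 7.30, against 5.90, 6.18 and 6.42, and the ETS factor ETV4 had 7.31 and 7.39, against 5.75, 6.17 and 6.52. They differed by 1.21 ± 0.12 and 1.19 ± 0.099 and were detected on 5 and 7 of the 8 other arrays. These 4 genes held an intermediate place, above each other tolerant clone and below B7. FOS went the other way (-0.70 ± 0.084), with 9.51 in D6 and 6.19 in E3, and was not called without D6 (adjusted p = 0.285) or with the clone as a random block (adjusted p = 0.727).

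The receptor gene EGFR had 9.50 and 9.55 in E2, against 8.63, 9.58 and 11.25, and its difference of -0.21 ± 0.07 (adjusted p = 0.0275) turned to 0.28 without E1, to 0.04 with median scaling and to 0.003 with the mean over its probes. Its other probes differed by -0.16 and by 0.37, the second called in the opposite direction (adjusted p = 0.00695 over probes), so no direction can be given for EGFR. Its adjusted p under the random block was 0.933. MET (-0.16 ± 0.066, adjusted p = 0.0695) and AXL (0.21 ± 0.092, adjusted p = 0.0733) did not pass. The EGFR partners ERBB3 (10.08 and 10.10 in E2 against 10.58 to 10.84) and ERBB2 (9.27 and 9.36 against 9.86 to 10.20) were lower by -0.65 ± 0.061 and -0.70 ± 0.07 with no overlap. ERBB2 was not called with the clone as a random block (adjusted p = 0.0596) and differed by -0.31 at its other probe. The other ERBB3 probes differed by 0.19 and -0.30. Of 11 EGFR family genes 2 were higher and 6 lower, with 0 set apart and 1 called, lower, with the clone as a random block. Of 15 other receptor kinases 2 were higher and 3 lower, beside 26.4% and 26.8% of all genes. The random block left 1 call, lower. Set apart in the main fit were 2, both lower. They were the collagen receptor DDR1, at 9.74 and 9.89 in E2 against 10.53 to 11.44 (-1.21 ± 0.081), and the fibroblast growth factor receptor FGFR3, at 7.03 and 7.12 against 7.41 to 9.57 (-1.48 ± 0.069). The other DDR1 probes differed by -0.19 and -0.84. FGFR3 was not called with the clone as a random block (adjusted p = 0.119), and its other probe differed by -0.19.

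At the low end, the largest fall was that of an insulin-like growth factor binding protein. IGFBP5 had 7.65 and 7.80 in E2, against 9.41, 11.65 and 12.16 as the lowest, median and highest of the other tolerant arrays, and 5.26 and 5.27 in B7. It was 11.3-fold lower (-3.50 ± 0.065, adjusted p = 7.99e-10), and its other probe differed by -3.03. IGFBP3, of the same family, had 10.99 and 10.88 in E2, against 12.58, 12.87 and 14.02, and 7.09 and 7.45 in B7 (-2.15 ± 0.095). Both stood between the other tolerant clones and B7. The chloride channel protein CLIC3 had 6.26 and 6.48 in E2, against 9.08, 9.34 and 9.82, and 4.81 and 4.67 in B7. Its 4 comparator clones lay close together (9.20 to 9.80), and at the clone level its unadjusted p was 1.41e-05. PLA2G10, a secreted phospholipase, had 6.81 and 6.87 in E2, against 9.16, 9.59 and 11.17 (-3.02 ± 0.091). The prostaglandin synthase PTGS2 had 6.02 and 6.11 in E2, against 7.75, 7.98 and 10.55, and 7.04 and 7.13 in B7, and was 5.65-fold lower, with a log2 difference of -1.34 at its other probe. The mean of PTGS2 leans on D6 (10.54), and with the clone as a random block its adjusted p was 0.061. LOXL4, a matrix crosslinking oxidase, differed by -2.76 and likewise was not called there (adjusted p = 0.0519). BCAS1, known from myelinating glia and amplified in breast cancer, was detected on 0 E2 arrays and all 8 others, at least 4.82-fold lower.

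Mucins and CEACAM adhesion proteins led the fall of secretory genes. Of 21 measured genes of the lung lineage and secretory list 13 were lower, 1 higher and 7 set apart, all 7 lower, with a median of -0.39. With the clone as a random block 6 were called, all lower. The median level of the list was 6.15 and 6.27 on the E2 arrays, against 6.996, 7.72 and 8.81, and 6.02 and 6.03 in B7. This is the level of the middle gene on each array, and the median gene difference was smaller than the gap in these levels. It was -0.54 against D6, -1.19 against E1, -0.26 against E3 and -0.98 against E6. MUC16, a cell surface mucin, had 7.9999 and 7.90 in E2, against 8.58, 11.36 and 12.47, and 8.30 and 8.31 in B7. It was 7.87-fold lower (-2.98 ± 0.074, adjusted p = 2.94e-09), but E3 was at 8.64, and with the clone as a random block its adjusted p was 0.0683. MUC1 had 10.50 and 10.59 in E2, against 11.93, 12.95 and 13.24 (-2.22 ± 0.057), with -1.68 and -2.43 at its other probes. CEACAM6 had 11.41 and 11.33 in E2, against 13.44, 14.13 and 14.29, and 12.76 and 12.70 in B7, 6.23-fold lower. CEACAM5 was detected on 0 E2 arrays and all 8 others, at least 4.09-fold lower. CEACAM6 and MUC16 were also below both B7 arrays. They are among 103 such genes of the 395 set apart and lower in E2, or 0.841% of all genes tested. The prostate stem cell antigen PSCA, a glycosylphosphatidylinositol-anchored surface protein, had 7.60 and 7.56 in E2, against 9.43, 9.84 and 11.54 (-2.58 ± 0.085).

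Epithelial junction and keratin genes were lower in E2 in most cases. Of 30 measured, 22 were lower, 1 higher and 6 set apart, all 6 lower, with a median of -0.57 and levels of 9.19 and 9.22 in E2, against 9.57 to 9.95 in the other tolerant clones, and 8.73 and 8.77 in B7. Under the random block 5 of the 22 lower genes were called. CDH1, or E-cadherin, had 11.23 and 11.24 in E2, against 12.02, 12.21 and 12.62, and 11.14 and 11.21 in B7 (-1.03 ± 0.058). The tight junction gene CLDN1 had 9.30 and 9.20 in E2, against 10.47, 10.997 and 11.66, and JUP, or plakoglobin, had 9.85 and 9.94, against 10.89, 11.18 and 11.53. ELF3, an epithelial ETS factor, had 10.39 and 10.27, against 10.97, 11.61 and 12.20. The 3 differed by -1.77, -1.29 and -1.29. PRSS8, an epithelial protease, differed by -2.32 but was not called with the clone as a random block (adjusted p = 0.149). Of 18 mesenchymal and matrix genes measured, 12 were lower, 2 higher and 4 set apart, all 4 lower. With the clone as a random block only 1 was called, lower. The median difference was -1.07 against D6, -0.71 against E1, -0.45 against E3 and 0.06 against E6. By this median E2 was level with E6. The actin-binding TAGLN had 10.07 and 10.16 in E2, against 10.63, 12.26 and 12.54 (-1.80 ± 0.062), while the filament VIM, at 8.34 and 8.10, overlapped the other clones (8.16 to 9.55). VIM differed by -0.54 ± 0.074, with -1.01 at its other probe, and was not called with the clone as a random block (adjusted p = 0.468).

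Squamous genes fell in part. Of 27 measured, 16 were lower, 3 higher and 8 set apart, all 8 lower, with a median of -0.54. The median difference was -0.65 against D6, -0.51 against E1, -0.42 against E6 and only -0.10 against E3. In the random-block fit 6 were called, all lower. The cornified envelope precursors SPRR3 and SPRR1A had 6.58 and 6.78, and 9.88 and 9.85 in E2, against 7.48 to 10.78 and 11.78 to 12.64 in the other clones. SPRR1A was evenly high in these (clone means 11.79 to 12.56), whereas SPRR3 was 7.67 in E1 and 10.67 in E3. The keratin KRT13 was detected on 0 E2 arrays and 7 of the 8 others, at least 6.19-fold lower, and the serpin SERPINB3 differed by -2.31 ± 0.11, with -0.71 at its other probe. Both varied widely among the comparators, KRT13 between 6.07 in E3 and 10.33 in D6, and neither was called with the clone as a random block (adjusted p = 0.14 and 0.119).

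Lysosomal genes were lower as a group. Of 28 measured, 23 were lower, 0 higher and 9 set apart, with a median of -0.74, and with the clone as a random block 11 were called, all lower. The list stood at 9.08 and 9.20 on the E2 arrays, against 10.02, 10.18 and 10.61, and 8.86 on both B7 arrays, with no overlap between E2 and the other tolerant clones. Progranulin, GRN, which supports lysosomal proteases, had 9.35 and 9.34 in E2, against 10.38, 11.34 and 11.62, and 9.54 and 9.58 in B7. It was 3.57-fold lower (-1.84 ± 0.075, adjusted p = 2.37e-08), and its other probe differed by -1.53. Protective protein, CTSA, had 9.23 and 9.29 in E2, against 10.64, 10.93 and 11.40 (-1.73 ± 0.076), the fucosidase FUCA1 had 8.93 and 8.99, against 10.40, 10.49 and 11.15 (-1.67 ± 0.081), and the protease CTSH had 11.18 and 11.16, against 12.11, 12.48 and 12.76 (-1.30 ± 0.064). GLMP, a lysosomal membrane glycoprotein outside the list, had 7.41 and 7.40 in E2, against 9.72, 9.92 and 10.61, and 8.66 and 8.74 in B7. At 6.17-fold lower, it was below every other array of the series.

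TFEB and its relatives bind TCACGTGA in the promoters of lysosomal genes. Within 100 bases before the start it was in 3 of 21 lysosomal promoters (14.3%), in 108 of 9757 in all (1.11%), and, for comparison, in 3 of 33 S phase promoters (9.09%). The stretch of CTSA, the lysosomal gene with the largest difference that holds it, is at chr20:45891235-45891334 (+).
CTSA: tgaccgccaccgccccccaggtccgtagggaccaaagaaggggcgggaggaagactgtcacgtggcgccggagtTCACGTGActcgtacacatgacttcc

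Complement, interferon and chemokine lists each held genes set apart. In the complement and acute phase list 9 of 16 were lower, 1 higher and 5 set apart, all 5 lower, with a median of -0.57. In the random-block fit 4 were called lower. Complement factor D, CFD, had 9.49 and 9.34 in E2, against 11.56, 11.85 and 13.07, and 5.84 and 6.02 in B7 (-2.65 ± 0.072, adjusted p = 4.03e-09). The classical pathway protease C1S had 8.63 and 8.93 in E2, against 9.64, 10.65 and 11.05, and factor B, CFB, had 11.37 and 11.50, against 12.27, 12.65 and 13.08. C1S and CFB were lower still in B7, as CFD was. Interferon response genes had a median difference of -0.37, with -0.33 against D6, -0.74 against E1, -0.01 against E3 and -0.21 against E6. By this median E2 was level with E3. Of 32 measured, 17 were lower, 3 higher and 5 set apart, all 5 lower, and 3 were called, lower, with the clone as a random block. The guanylate-binding GBP2 led them, with 9.56 and 9.40 in E2, against 10.99, 11.68 and 12.12, and 7.09 and 7.01 in B7 (-2.13 ± 0.07). IRF9, the DNA-binding part of the interferon-activated factor, had 7.73 and 7.67, against 8.62, 8.87 and 9.40. IFI6 differed by -1.68 (-0.74 at its other probe) but overlapped E3 (8.38) and was not called with the clone as a random block (adjusted p = 0.184).

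In antigen presentation on MHC class I 11 of 20 genes were lower, 2 higher and 1 set apart, HLA-E, at 10.04 and 10.16 in E2 against 10.85, 11.14 and 11.55, and 9.67 and 9.60 in B7. With the clone as a random block 2 of the list were called, lower. The median of this list, -0.19, turned to 0.06 with median scaling, and HLA probes can share sequence between genes. Among 19 inflammatory genes 4 were higher and 7 lower (1 and 1 with the clone as a random block), beside 26.4% and 26.8% of all genes. CCL20 was set apart higher, and CXCL8 and CXCL1, which attract neutrophils, were set apart lower. CXCL8 had 9.18 and 8.81 in E2, against 10.50, 11.25 and 11.74, and 10.58 and 10.63 in B7, 4.62-fold lower (adjusted p = 2.75e-08), with -1.71 at its other probe. CXCL1 differed by -1.75 and was not called with the clone as a random block (adjusted p = 0.0781).

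Among retinoid-responsive genes 9 of 13 were lower, 2 higher and 2 set apart, both lower, and these 2 were far above B7. Under the random block 2 were called, both lower. RARRES1 had 12.35 and 12.32 in E2, against 13.33, 13.98 and 14.98, and 6.58 on both B7 arrays (-1.72 ± 0.07), with -1.09 and -1.87 at its other probes. PLAAT4, an acyltransferase, had 7.99 and 8.30, against 9.53, 10.03 and 10.88, and 4.92 and 4.97 in B7 (-1.96 ± 0.092). Among markers linked to stem cells or drug persistence 9 of 16 were lower, 4 higher, and 5 were set apart lower against 1 higher, with 5 called, all lower, under the random block. The transcription factor SOX4 had 8.50 and 8.79 in E2, against 10.35, 10.52 and 10.86 (-1.90 ± 0.08), the surface sialoglycoprotein CD24 had 12.17 and 12.18, against 13.64, 13.72 and 13.89 (-1.57 ± 0.058), and the aldehyde dehydrogenase ALDH3A1 had 11.24 and 11.26, against 12.06, 12.51 and 12.89. For SOX4 and for CD24 the 8 comparator arrays spanned less than their gap to E2.

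Matrix-degrading and lipid genes gave a few clear falls. Of 16 matrix protease genes 10 were lower, 2 higher and 4 set apart, all 4 lower, and 3 were called lower and 1 higher with the clone as a random block. Matrilysin, MMP7, had 6.41 and 6.38 in E2, against 7.86, 9.08 and 10.41, and 4.67 and 4.87 in B7, 6.69-fold lower (adjusted p = 4.16e-09). The inhibitor TIMP2 had 10.89 and 10.77, against 11.82, 12.07 and 12.46 (-1.29 ± 0.066), while the plasminogen activator PLAU (-1.12) was not called with the clone as a random block (adjusted p = 0.0821). SCD, which desaturates fatty acids, had 9.85 and 9.67 in E2, against 11.14, 11.81 and 12.13, and 11.40 and 11.49 in B7, 3.88-fold lower, and was the only 1 of 26 genes of cholesterol and fatty acid synthesis set apart (5 higher, 13 lower, and 0 and 1 with the clone as a random block). In the TGF-beta, BMP and ID list 13 of 20 were lower and 1 higher, TGFBR3. Set apart lower were the inhibitor of differentiation ID1 (-1.17), the receptor BMPR2 (-1.07) and the matrix protein TGFBI (-1.02), the last named after its value was seen. The other probes of ID1 and BMPR2 differed by -0.45 and -0.88, short of 2-fold. In the random-block fit 0 of the 13 lower calls held, and TGFBR3 was called. BMF, a BH3-only protein that promotes cell death, was the only BCL2 family gene of 15 set apart, at 7.61 and 7.997 in E2 against 8.92, 9.24 and 9.61 (-1.43 ± 0.11), with 7 of the 15 lower and 1 higher, and 1 lower with the clone as a random block.

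Other lists had few or no genes set apart, or differed between the comparator clones. Of 50 cytosolic ribosomal protein genes 4 were higher and 6 lower, with 0 set apart and a median of -0.01, and of 43 respiratory chain genes 16 were higher and 1 lower, with 0 set apart and a median of 0.11. Hypoxia and glycolysis genes had 18 of 32 lower and 2 higher, with 3 set apart, all lower, but 0 called with the clone as a random block. The median was -0.60 against D6 and -0.85 against E1, and 0.16 against E3. Metallothioneins (1 of 6 higher, 3 lower) had a median of -1.40 against E1 and 0.20 against E6. For MT1X, the most different of the 6 measured, E2 had 10.19 and 10.35, between E3 (10.08) and D6 (12.62), and its adjusted p with the clone as a random block was 0.528. NRF2 targets had 7 of 31 higher and 9 lower, WNT genes 6 of 27 higher and 8 lower, Notch genes 4 of 15 higher and 6 lower, NF-kB genes 2 of 14 higher and 7 lower, AP-1 factors 1 of 12 higher and 6 lower, integrins 3 of 15 higher and 6 lower, YAP targets 3 of 21 higher and 10 lower, and heat shock genes 6 of 24 higher and 11 lower. In the random-block fit none of these 8 lists had more than 1 gene called, and the ribosomal list had 1, the respiratory list 0 and the metallothioneins 0. Each share is to be read against 26.4% and 26.8% over all genes.

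**Figure D4:**
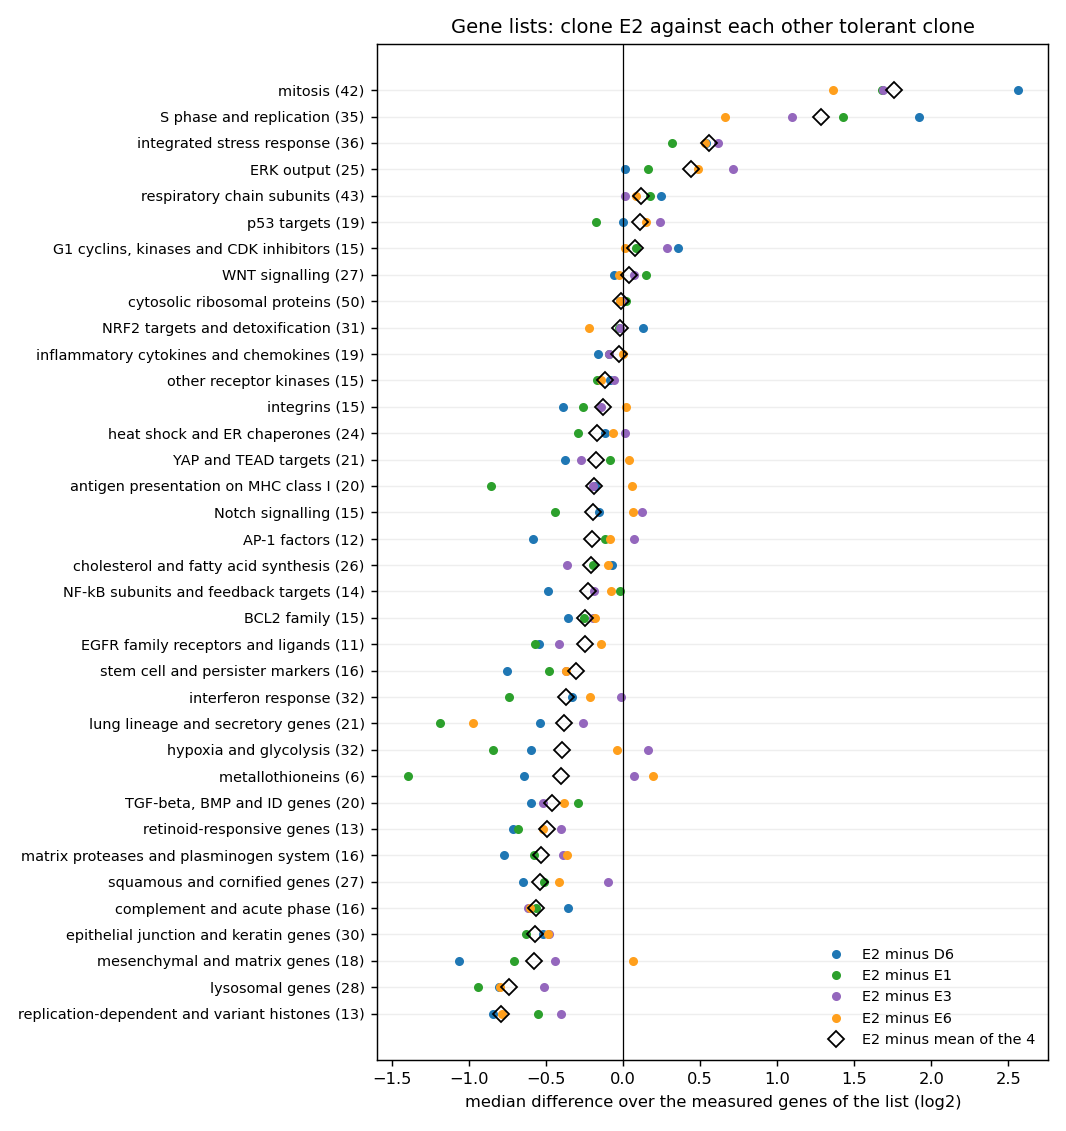
Median difference (log2) over the measured genes of each of 36 lists, E2 minus each other tolerant clone (coloured points) and E2 minus the mean of the 4 (open diamonds), with the number of genes in parentheses. Mitosis (1.76) and S phase (1.29) lie furthest to the right, with all 4 points above 0, and lysosomal genes (-0.74) and histones (-0.79) furthest to the left.

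Genes were also taken in their RefSeq order along the chromosomes. Chromosome medians lay between -0.06 on X and 0.07 on 8, and the medians of windows of 15 neighbouring genes lay between -0.27 and 0.28 once 2.5 percent were left out at each end. The 2 highest windows ran from CCDC77 to TSPAN9 on chromosome 12 (0.62, led by the mitotic transcription factor FOXM1 with 1.62) and from ADORA2B to COPS3 on chromosome 17 (0.60). The 2 lowest ran from IRX5 to MT1X on chromosome 16 (-0.74, led by the carboxylesterase CES1 with -2.30, and -1.56 at its other probe) and from H3C8 to ZNF204P on chromosome 6 (-0.58, led by H4C8). Each holds 1 to 3 genes set apart, and the most different gene of the chromosome 17 window, the keratin pseudogene KRT16P2, was lower (-1.79). With the clone as a random block neither CES1 (adjusted p = 0.174) nor KRT16P2 (adjusted p = 0.0609) was called. KRT16P2 shares sequence with KRT16, and SNORD3C (-2.51), among the 15 lowest genes, with near-identical copies, so neither can be assigned to 1 locus.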

How the data were processed

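Total RNA of 6 PC9 clones, 2 samples each, was labelled as biotinylated cRNA and read on Illumina bead arrays, per the labels' protocols. The authors deposited scanner signals as linear intensity, with 26.6% to 28.4% of the values below 0. The deposited detection p-values are empty, and how the background was subtracted is not given in the sources used here. Their own normalized intensity, deposited with a floor of 20, served as an alternative. Signals were corrected by normexp (offset 16), quantile normalized and put on the log2 scale in limma 3.58.1 (R 4.3.3).

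A probe counted as detected on an array above 2.33 times the noise (8.63 to 10.3 intensity units, from its negative values; 1-sided p 0.01), and was kept if both arrays of 1 clone detected it. Of 47229 probes, 30112 had 1 gene symbol, 8 several and 17109 none, and 21912 were kept. The brightest kept probe stood for its gene, which gave 12250 genes. Listed genes with no assigned probe or under the limit were not analysed.

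The main test was limma on group means of all 12 arrays (lmFit and eBayes, Benjamini-Hochberg adjustment), E2 minus the mean of 4 clone means, and every adjusted p in the text is from it unless another fit is named. Clone-level fits used 5 clone means. A fold against a clone set with no detected array is a bound set by the lowest detected signal. The number of arrays limits the precision. The script was tested on simulated data.

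Genes named were the 15 highest and 15 lowest among those set apart, up to 4 called members of each list with the largest differences, the ends and leading gene of 4 neighbour windows, and EGFR, MET, AXL, ERBB3, MKI67, CDKN1A, VIM and CDH1. The comparison and the gene lists were chosen with earlier results of these data known. Promoters and gene order came from RefSeq, and tables and figures were made with python 3.11.15, pandas 2.3.3, numpy 2.4.6 and matplotlib 3.10.9.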

Additional observations from a re-analysis of the deposited data

How the results depend on the processing

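Of 179 genes eligible to be named, 175 were called, 85 of them under each of 28 settings and 166 under each one other than the clone as a random block. That block, with a within-clone correlation of 0.746, called 358 genes higher and 377 lower in E2, and set apart 279 higher and 263 lower. Median scaling left 1987 genes lower at the array level, set apart 613 higher and 253 lower, and gave 5432 higher and 1495 lower against D6, and 1819 lower against E6. It set 70.8% of the genes set apart higher, against 49.0% with quantile normalization. The authors' processed values set apart 573 higher and 605 lower. At the clone level median scaling called 1 gene lower (smallest adjusted p 0.0350) and no filter on low values 2 (0.0498), all others 0. EGFR turned sign with median scaling (0.039), with the mean over its probes (0.0028) and without clone E1 (0.28), and the cause was not tested. Leaving out 1 array gave 2482 to 3258 genes higher and 2601 to 3298 lower, with 377 to 385 and 394 to 415 set apart. Leaving out 1 comparator clone set apart 344 to 432 higher and 351 to 487 lower. Replicate numbers did not pair the arrays (15 pairs of clones, correlations -0.025 to 0.054), and with the replicate number as a block 3227 genes were higher and 3268 lower. Genes near the detection limit have compressed folds, and for 50 genes set apart only a bound could be given.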
